A study of Mus musculus with 18 samples.

Results

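The histone genes were defined as all protein-coding genes whose GENCODE mouse M21 symbol begins with Hist1h, Hist2h, Hist3h, Hist4h, H2af, H3f3 or H1f. The rule found 82 of the 54281 genes of the count table. Of these, 67 were clustered genes (symbols beginning with Hist; 6 for the linker histone H1, 18 for H2A, 18 for H2B, 12 for H3 and 13 for H4), and 15 were replacement genes (H2af, H3f3 and H1f). Of the clustered genes, 54 lie on chromosome 13, 10 on chromosome 3, 2 on chromosome 11 and 1 on chromosome 6. Enough reads for a test were present for 41 of the 82 genes in the cortex libraries (31 clustered and 10 replacement) and for 59 in the wild-type libraries with stem cells included (49 and 10). A further 20 genes had counts but too few for a test, and Hist1h2ba, H2afb1 and H2afb2 had none in any library. A gene that passed in the wild-type libraries through its stem cell counts alone had to be higher in stem cells, so counts of called genes are given as descriptions of the tested genes and not of all 82.

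Bulk RNA was sequenced from the cortex of C57BL/6J male mice, wild type (WT) or labelled Mcph1KO for a knockout of Mcph1, at 4 stages that the labels call E17.5, P4, A6w and A18w. The remaining libraries came from R1, a line of wild-type mouse embryonic stem cells (mESC). Each of the 9 groups held 2 libraries, and the allele of the knockout is not described in the labels. Mcph1 encodes microcephalin, whose loss causes small brain size in people and mice. The labels do not say whether libraries of a group came from separate animals or cultures, so the p-values measure the spread between these libraries, which may be technical.

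Histones package DNA into nucleosomes. The clustered genes are replication-dependent: they are transcribed mainly in S phase, lack introns in most cases, and their mRNAs typically end in a stem-loop, bound by the protein SLBP, in place of a poly(A) tail. Replacement genes are transcribed through the cell cycle and in cells that no longer divide, give polyadenylated mRNAs, and supply variants such as H3.3 that are placed into chromatin without DNA synthesis. Neurons stop dividing before birth in the cortex, and replacement histones are known to build up in them with age.

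The stem-loop and the annotated transcript end are the features that separate these classes, so the loops of the genes the results turn on are shown first. Sequences were read from GENCODE M21 transcripts on the sense strand, 5′ to 3′, written as DNA. Capitals mark the match to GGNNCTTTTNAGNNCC (N is any base), and lower case the 5 bases on either side.

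Hist3h2a: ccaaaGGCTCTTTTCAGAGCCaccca
Hist3h2ba: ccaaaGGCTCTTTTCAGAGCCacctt
Hist1h1c: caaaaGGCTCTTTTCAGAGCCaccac
Hist2h2aa2: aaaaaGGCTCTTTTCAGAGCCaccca
Hist1h3c: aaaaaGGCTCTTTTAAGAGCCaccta
Hist1h4i: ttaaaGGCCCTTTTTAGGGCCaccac
H2afx: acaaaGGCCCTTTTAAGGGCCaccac

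The motif was present in 43 of 67 clustered genes (64.2%), against 69 of 21866 protein-coding genes (0.316%). The most frequent form, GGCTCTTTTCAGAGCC, was found in 25 of the 43. Among replacement genes only H2afx held the motif, 1 of 15. Only annotated transcripts were searched, and some clustered genes without a match have short ones, such as Hist1h4k at 312 bases and Hist1h2ai at 393. A loop or polyadenylation signal past the annotated end would be missed, so a gene without a match may still have one. A polyadenylation signal (AATAAA or ATTAAA) in the last 50 bases was annotated for 17 of 67 clustered genes (25.4%), 9 of 15 replacement genes (60%) and 72.2% of all protein-coding genes. The annotated transcript ran on for 1643 bases after the loop in Hist3h2a, 840 in Hist1h1c, 822 in H2afx, 330 in Hist1h4i and 169 in Hist3h2ba, but for 74 in Hist1h3c and 35 in Hist2h2aa2. An end was called extended where a coding transcript was spliced, ran more than 100 bases past the loop or carried a polyadenylation signal, which applied to 29 clustered genes, and short in the other 38. Of the extended genes, 22 passed the filter in cortex, and of the short ones 9. A short end can also mean that the annotation stops early. This split was made after counts had been seen and is used as a description only.

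Promoters are shown for the pair on chromosome 11 with the highest clustered levels per length at E17.5, which lie near each other, and for a chromosome 13 gene that was highest in stem cells. They come from RefSeq on GRCm38.p6, cover 250 bases before to 50 after the annotated start, and are written 5′ to 3′ on the gene's strand. Of the 82 genes, 76 matched the RefSeq table. Capitals mark 3 motifs, each searched on both strands. The first is CCAAT, the site of the factor NF-Y. TATAAA is a TATA box. The third is the octamer ATTTGCAT, known as the site of OCT1 in H2B promoters.

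Hist3h2a, chr11:58954435-58954734, plus strand: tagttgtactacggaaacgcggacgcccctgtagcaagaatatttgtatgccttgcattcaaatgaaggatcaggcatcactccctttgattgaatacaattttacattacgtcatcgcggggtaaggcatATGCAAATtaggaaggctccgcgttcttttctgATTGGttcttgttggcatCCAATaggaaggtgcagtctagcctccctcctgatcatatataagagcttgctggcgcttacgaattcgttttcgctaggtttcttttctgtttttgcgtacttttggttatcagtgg
Hist3h2ba, chr11:58948661-58948960, plus strand: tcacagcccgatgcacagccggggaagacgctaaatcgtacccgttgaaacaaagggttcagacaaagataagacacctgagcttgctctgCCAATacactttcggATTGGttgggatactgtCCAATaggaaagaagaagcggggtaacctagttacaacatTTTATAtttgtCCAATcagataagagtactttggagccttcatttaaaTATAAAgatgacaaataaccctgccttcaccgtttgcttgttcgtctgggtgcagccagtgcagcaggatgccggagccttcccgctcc
Hist1h3c, chr13:23745472-23745771, minus strand: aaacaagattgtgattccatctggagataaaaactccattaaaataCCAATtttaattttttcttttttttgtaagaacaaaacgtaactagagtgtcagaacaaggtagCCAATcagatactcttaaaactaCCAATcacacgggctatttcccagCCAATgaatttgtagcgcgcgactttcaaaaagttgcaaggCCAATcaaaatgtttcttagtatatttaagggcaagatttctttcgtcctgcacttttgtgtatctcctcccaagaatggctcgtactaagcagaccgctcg

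CCAAT was in 85.5% of 62 clustered promoters against 37.4% of all 32851 promoters in the table, TATAAA in 56.5% against 13.6%, and the octamer in 21% against 1.74%. Of 14 replacement promoters, CCAAT was in 71.4%, TATAAA in 7.14% and the octamer in 7.14%, so CCAAT was frequent in both classes. The octamer was in 7 of 18 H2A and 6 of 16 H2B promoters and in no clustered H1, H3 or H4 promoter. CCAAT was in each of the clustered H1, H2A, H2B and H3 promoters but in 3 of 12 H4 promoters. A match is a run of letters and not a measured binding site.

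Total counts ran from 23531045 to 32041849 per library. Pluripotency markers were at 6928 and 7097 CPM (counts scaled to library size, here by trimmed mean of M-values over the 18 libraries) in mESC and at most 3.29 in cortex, where the summed neuron markers reached 4188 to 8429. The targeted gene was checked first: Mcph1 was at 9.95 to 12.5 CPM in WT and 12.3 to 13.01 in Mcph1KO at E17.5, 10.7 to 11.8 and 13.1 to 14.2 at P4, 9.04 to 9.75 and 16.2 to 16.5 at A6w, and 8.32 to 9.73 and 11.8 to 13.9 at A18w. It was not lower in any group labelled Mcph1KO; the mean log2 difference was 0.42, and 4 of 1296 labelings gave one as large (exact permutation within stages, two-sided p = 0.00309). By the edgeR quasi-likelihood test, adjusted over all genes tested, the Mcph1 difference averaged over stages was not called (adjusted p = 0.368). The level of Mcph1 thus could not serve to check the labels, and genotypes are given as labelled. At E17.5 the libraries numbered 1 stood apart from those numbered 2 in both genotypes, with higher CPM in library 1 than in library 2 in both genotypes for 9 of 10 tested replacement genes and 18 of 31 clustered genes, against 42.8% of all genes tested. Where a fall or rise from E17.5 to P4 did not pass without the libraries numbered 1, this is given beside it for the genes described. RNAs that are not polyadenylated were low but uneven: 7 small RNAs such as Rn7sk and Rmrp summed to 0.376 to 32.4 CPM in cortex. In mESC they summed to 16.6 and 26.5 CPM. At E17.5 they summed to 32.4 (WT) and 8.33 (Mcph1KO) in libraries numbered 1, against 1.43 and 1.15 in those numbered 2. Rny1 and Rny3 had no counts. Whether libraries differed in their capture of RNAs without a tail was not tested. The labels do not state whether poly(A) RNA was selected, so clustered levels describe what these libraries captured, and a transcript without a tail may be counted in part or not at all.

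All 10 tested replacement genes fell from E17.5 to P4, and 5 of them fell again from P4 to A6w; H2afz and H2afx were at their highest in stem cells. H3f3a and H3f3b encode the same H3.3 protein from different mRNAs. H3f3a was at 769 and 986 CPM in mESC, 845 and 1036 in E17.5 WT, 774 and 1089 in E17.5 Mcph1KO, 523 to 573 over the 4 P4 libraries, 140.4 to 174.7 at A6w and 154.1 to 205.8 at A18w. The 4 libraries of each of these stages lay below those of the stage before, except that A6w and A18w overlapped. H3f3a fell by 0.75 ± 0.14 on the log2 scale (± SE) from E17.5 to P4 (adjusted p = 0.00108; edgeR quasi-likelihood test with Benjamini-Hochberg adjustment, the test for all adjusted p-values below unless another is named) and by 1.80 ± 0.14 from P4 to A6w (edgeR adjusted p = 2.98e-07). H3f3b was at 621 and 774 CPM in mESC, 684 to 1096 at E17.5, 360 to 619 at P4, 145.4 to 172.1 at A6w and 131.6 to 176.5 at A18w, and fell by 0.84 ± 0.20 and then by 1.70 ± 0.20 (edgeR adjusted p = 0.00503 and 1.11e-05). Without both E17.5 libraries numbered 1, the first H3f3b fall did not pass (log2 difference -0.56, edgeR adjusted p = 0.0954). Per kilobase of the longest coding transcript the pair were level with each other at E17.5, 330 for H3f3a and 357 for H3f3b in mean CPM per kb.

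Of the H2A.Z genes, H2afz was higher in stem cells than in fetal cortex and H2afv was not called. H2afz, which encodes H2A.Z, found around active promoters, was at 889 and 1275 CPM in mESC, 204.3 to 376.2 at E17.5, 111.5 to 164.5 at P4, 91.4 to 110.3 at A6w and 119 to 146.7 at A18w. The stem cell libraries were both far above all cortex libraries, 2.02 ± 0.30 higher than E17.5 WT on the log2 scale (edgeR adjusted p = 0.000164). H2afz fell by 1.09 ± 0.20 from E17.5 to P4 (edgeR adjusted p = 0.00116), and its difference of -0.43 ± 0.20 from P4 to A6w did not pass (adjusted p = 0.08) although the groups did not overlap. H2afv, for the closely related protein H2A.V, was at 93.0 and 77.3 CPM in mESC and 74.7 to 125.7 at E17.5, which overlapped, and at 20.1 to 29.5 at P4, 21.6 to 27.1 at A6w and 28.8 to 35.6 at A18w. Its fall of 1.92 ± 0.20 from E17.5 to P4 was the largest among the 10 tested replacement genes (edgeR adjusted p = 4.37e-05).

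H2afx, for the variant that is phosphorylated beside DNA breaks and the only replacement gene with the stem-loop, was at 510 and 329 CPM in mESC, 98.3 to 147.5 at E17.5, 53.2 to 67.3 at P4, 35.0 to 41.5 at A6w and 39.7 to 43.8 at A18w. It was 1.92 ± 0.26 higher in mESC than in E17.5 WT and fell by 0.97 ± 0.13 and 0.74 ± 0.13 over the first and the second stage step (edgeR adjusted p = 8.58e-05, 2e-04 and 0.000395). H2afj, for the H2A variant H2A.J, was at 45.6 and 50.2 CPM in mESC, 35.5 to 49.0 at E17.5, 20.8 to 34.3 at P4, 31.4 to 50.5 at A6w and 38.9 to 51.6 at A18w. It fell by 0.51 ± 0.18 from E17.5 to P4 (edgeR adjusted p = 0.0396), and did not pass without the E17.5 libraries numbered 1 (adjusted p = 0.275). It was the only replacement gene called higher at A6w than at P4 (0.47 ± 0.18, edgeR adjusted p = 0.0395), but these groups overlapped and the call was lost in 11 of 26 alternatives, scaling by total count alone among them.

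The macroH2A genes, whose proteins carry a large extra domain and mark silent chromatin, both fell from E17.5 to P4. From P4 to A6w H2afy2 was called lower and H2afy was not. H2afy was at 123.4 and 182.4 CPM in mESC, 155.1 to 269.2 at E17.5, 65.3 to 100 at P4, 51.9 to 68.6 at A6w and 62.7 to 73.4 at A18w. It fell by 1.29 ± 0.20 from E17.5 to P4 (edgeR adjusted p = 0.000438) and differed by -0.47 ± 0.20 from P4 to A6w, which did not pass (adjusted p = 0.0607). H2afy2 was at 21.9 and 41.8 CPM in mESC, 165.9 to 234.6 at E17.5, 110.2 to 124.8 at P4, 16.8 to 23.6 at A6w and 18.2 to 21.7 at A18w. It stayed above 100 CPM through P4 and was then down by 2.54 ± 0.15 at A6w, the largest fall over this step of any tested histone gene with counts in every library (edgeR adjusted p = 2.81e-08), after a fall of 0.75 ± 0.14 from E17.5 to P4 (adjusted p = 0.00124). In mESC it was 2.53 ± 0.31 lower than in E17.5 WT (edgeR adjusted p = 3.82e-05). The difference between H2afy and H2afy2 in their steps was not tested.

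Of the linker histones, H1f0, the variant known to build up in cells that leave the cell cycle, was at 83.1 and 83.9 CPM in mESC, 243.1 and 491 in E17.5 WT, 180.6 and 525 in E17.5 Mcph1KO, 78.1 to 130.9 at P4, 92.2 to 112.5 at A6w and 76.7 to 110.9 at A18w. Its libraries numbered 1 held more than the libraries numbered 2 at E17.5 in both genotypes. It fell by 1.78 ± 0.30 from E17.5 to P4 (edgeR adjusted p = 0.000732), and by 1.04 (edgeR adjusted p = 0.00739) without the E17.5 libraries numbered 1. H1fx was at 49.1 and 81.9 CPM in mESC, 118.3 to 171.4 at E17.5, 81.6 to 106.7 at P4, 45.7 to 57.04 at A6w and 55.8 to 62.4 at A18w, and fell by 0.61 ± 0.13 and 0.87 ± 0.13 over these steps (edgeR adjusted p = 0.00283 and 8.16e-05). Both were lower in mESC than in E17.5 WT, by 2.05 ± 0.31 and 1.06 ± 0.27 (edgeR adjusted p = 0.000202 and 0.00497). The testis and oocyte genes H1fnt and H1foo and the gene H2afb3 were counted but too low for a test.

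**Figure D1:**
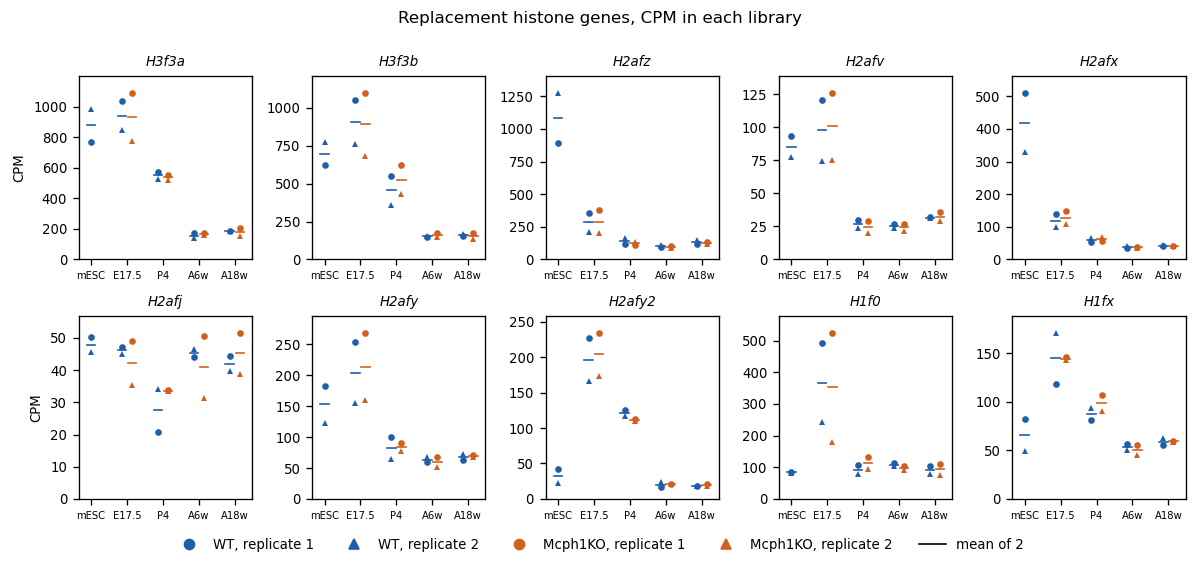
CPM (y axis, from 0) of the 10 tested replacement genes in each library, by stage (x axis); circles are libraries numbered 1, triangles those numbered 2, blue is WT, orange is labelled Mcph1KO, and lines are means of 2. H3f3a lies between 774 and 1089 CPM at E17.5 and between 140.4 and 205.8 at A6w and A18w, while H2afz and H2afx are highest in mESC.

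The clustered genes with the highest counts at E17.5 and P4 were the H2A and H2B genes Hist3h2a and Hist3h2ba on chromosome 11, outside the main cluster. Hist3h2a was at 3.64 and 5.43 CPM in mESC, 69 and 98.6 in E17.5 WT, 69.7 and 94.2 in E17.5 Mcph1KO, 40.6 to 47.7 at P4, 26.9 to 35.5 at A6w and 32.2 to 38.0 at A18w. Hist3h2ba was at 1.84 and 2.73 CPM in mESC, 76.1 and 115.5 in E17.5 WT, 78.4 and 111.9 in E17.5 Mcph1KO, 34.9 to 44.5 at P4, 14.6 to 18.2 at A6w and 12.1 to 20.01 at A18w. Both were highest in fetal cortex and lowest in stem cells, with no overlap between mESC and any cortex group. Hist3h2a was 4.12 ± 0.27 and Hist3h2ba 5.29 ± 0.30 lower in mESC than in E17.5 WT on the log2 scale (edgeR adjusted p = 4.35e-07 and 1.74e-07). From E17.5 to P4 they fell by 0.83 ± 0.14 and 1.26 ± 0.18, and from P4 to A6w by 0.55 ± 0.14 and 1.28 ± 0.18 (edgeR adjusted p = 0.000658, 0.000249, 0.00441 and 5.97e-05). Hist3 genes made up 71.4 to 74.1% of all clustered counts at E17.5, 62.7 to 69.4% at P4, 31.8 to 39.0% at A6w and A18w, and 5.91 and 6.89% in mESC. Among 31-base stretches of their transcripts, 32.1% in Hist3h2a and 37.2% in Hist3h2ba also occurred in other genes, so part of their reads had to be shared out by the estimate.

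Hist2h2be, another H2B gene with an extended end, was likewise lower in mESC and lower at P4 than at E17.5, at 0.986 and 2.81 CPM in mESC, 12.5 to 17.52 at E17.5, 5.63 to 9.63 at P4, 4.45 to 7.13 at A6w and 5.34 to 7.29 at A18w. It was 2.91 ± 0.49 lower in mESC than in E17.5 WT and fell by 1.04 ± 0.22 from E17.5 to P4 (edgeR adjusted p = 0.000378 and 0.00263). From P4 to A6w the groups overlapped and its difference of -0.29 ± 0.22 did not pass (edgeR adjusted p = 0.279). Only 2.8% of its 31-base stretches occurred in other genes.

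A set of clustered genes ran the other way after P4. Hist1h2bc (H2B) was at 18.8 and 24.5 CPM in mESC, 7.68 to 14.3 at E17.5, 7.003 to 9.88 at P4, 21.02 to 36.6 at A6w and 29.8 to 39.5 at A18w. All 8 A6w and A18w libraries were above all 8 libraries of E17.5 and P4. Hist1h2bc rose by 1.74 ± 0.20 from P4 to A6w (edgeR adjusted p = 1.04e-05) and was 1.22 ± 0.29 higher in mESC than in E17.5 WT (adjusted p = 0.00328). Hist1h2be (H2B) was at 0.986 and 2.34 CPM in mESC, 0.466 to 0.830 at E17.5, 0.478 to 1.15 at P4, 2.79 to 6.11 at A6w and 4.67 to 5.55 at A18w, a rise from P4 to A6w of 2.39 ± 0.34 (edgeR adjusted p = 5.21e-05). The linker gene Hist1h1e was at 0.343 and 1.86 CPM in mESC, 0.207 to 0.504 at E17.5, 0.161 to 0.429 at P4, 0.805 to 1.80 at A6w and 1.19 to 1.26 at A18w and rose from P4 to A6w by 2.35 ± 0.40 (edgeR adjusted p = 0.000281). The annotated transcripts of Hist1h1e and Hist1h2be overlap on the same strand. Of the stretches of Hist1h1e, 34.7% also occurred in other genes, and 24.5% in Hist1h2be. Part of the reads of this pair thus had to be shared out by the estimate. Whether Hist1h1e and Hist1h2be rose separately was not tested. Hist1h1c, the clustered linker gene of highest level, was at 8.45 and 12.5 CPM in mESC, 10.2 to 17.2 at E17.5, 11.1 to 15.03 at P4, 17.1 to 23.2 at A6w and 14.9 to 26.1 at A18w. Its rise of 0.57 ± 0.21 from P4 to A6w (edgeR adjusted p = 0.036) was lost in 8 of 26 alternatives, scaling by total count alone among them.

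The H2A genes Hist2h2aa1 and Hist2h2aa2 on chromosome 3 could hardly be told apart: all stretches of Hist2h2aa2 and 89.6% of those of Hist2h2aa1 occur in the other copy. Their sum was at 1.31 and 2.19 CPM in mESC, 6.11 to 7.61 at E17.5, 4.62 to 6.97 at P4, 10.9 to 17.3 at A6w and 13.6 to 19.1 at A18w. Summed, the pair was at a log2 difference of -1.89 in mESC against E17.5 WT and rose by 1.403 from P4 to A6w (edgeR adjusted p = 0.000585 and 3.5e-05). The H3 gene Hist2h3c1 also has no stretch of its own, with 35.4% of its stretches in Hist2h3c2 and the others elsewhere. Its 111 counts at P4 against 0 at E17.5, at least 39.5-fold higher against 3 counts over the group, come from 3 of 4 libraries, and without the E17.5 libraries numbered 1 the rise did not pass (edgeR adjusted p = 0.134). Summed with Hist2h3c2 it was at 1.29 to 2.19 CPM at E17.5 and 1.13 to 3.54 at P4, which overlap, and at 4.05 to 6.27 at A6w. The sum was not called from E17.5 to P4, and rose by 1.00 on the log2 scale from P4 to A6w (edgeR adjusted p = 0.0191).

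Of the H4 genes described here, Hist1h4h and Hist2h4 fell and rose again, and Hist1h4i and Hist1h4b fell and were not called higher later. Hist1h4i, the H4 gene of highest level, was at 3.64 and 4.37 CPM in mESC, 2.86 and 6.76 in E17.5 WT, 2.87 and 7.92 in E17.5 Mcph1KO, 0.935 to 1.72 at P4, 0.886 to 1.49 at A6w and 0.608 to 2.11 at A18w. It fell by 1.96 ± 0.44 from E17.5 to P4 (edgeR adjusted p = 0.00398), and without the E17.5 libraries numbered 1 the fall did not pass (log2 difference -1.16, edgeR adjusted p = 0.108). Hist1h4h had 6 to 20 counts per library at E17.5, 0 to 3 at P4 and 8 to 29 at A6w; it fell by 3.49 ± 0.70 and then rose by 4.25 ± 0.69 (edgeR adjusted p = 0.00216 and 0.000178). Hist2h4 had 3 to 15, 0 to 4 and 14 to 25 counts; it fell by 2.23 ± 0.82 and rose by 3.70 ± 0.79 (edgeR adjusted p = 0.0491 and 0.00147), and without the E17.5 libraries numbered 1 its fall did not pass (adjusted p = 0.412). Hist1h4b had 10 to 19 counts at E17.5 and 0 to 3 at P4 and fell by 4.35 ± 0.74 (edgeR adjusted p = 0.00116).

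Some H3 and H2A genes of chromosome 13 had few or no counts in cortex after birth. Those given below have short ends, but the H3 gene Hist1h3e, with an extended end, also had 0 to 3 counts per library from P4 on. Hist1h3c had 9 to 38 counts per library at E17.5, 0 to 5 at P4 and 0 at A6w, against 38 and 133 in mESC. It fell by 3.17 ± 0.83 from E17.5 to P4 (edgeR adjusted p = 0.0145), did not pass without the E17.5 libraries numbered 1 (log2 difference -2.51, edgeR adjusted p = 0.185), and was at least 2.98-fold lower at A6w than at P4 against a floor of 3 counts over the group. Hist1h3h had 6 to 25 counts at E17.5 and 2 in all at P4, a ratio of 24.9 with an exact 95% counting interval of 6.55 to 211. The H2A gene Hist1h2ap had 15, 20, 11 and 0 counts in the E17.5 libraries and 0 at P4, at least 14.4-fold lower, and its call was lost in 11 of 27 alternatives. Without the E17.5 libraries numbered 1 neither Hist1h3h nor Hist1h2ap passed (edgeR adjusted p = 0.115 and 1). The H2A gene Hist1h2ai had 25 counts at P4, 17 of them in 1 WT library, and 0 at A6w, at least 7.45-fold lower. These bounds and intervals take in counting error alone.

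**Figure D2:**
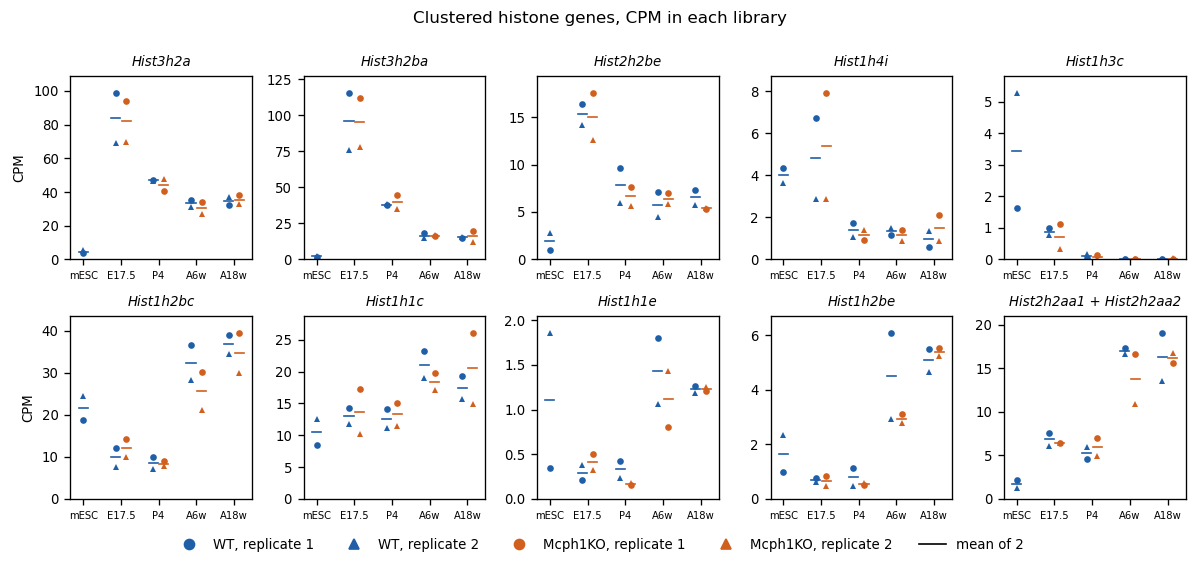
CPM (y axis, from 0) of clustered genes and of the summed pair Hist2h2aa1 and Hist2h2aa2 in each library, by stage (x axis); circles are libraries numbered 1, triangles those numbered 2, blue is WT, orange is labelled Mcph1KO, and lines are means of 2. The upper row holds genes at their highest at E17.5 or in mESC, and the lower row genes higher at A6w than at P4, such as Hist1h2bc at 21.02 to 36.6 CPM against 7.003 to 9.88.

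Stem cells differed from fetal cortex by higher levels of many clustered genes, most of them at few counts. Between mESC and E17.5 WT, 25 of 49 tested clustered genes were higher and 5 lower, with a median log2 difference of 2.19, against 32.7% of all 19466 genes tested higher, 35.3% lower and a median of -0.06. Of the 49, 31 also passed the filter in the cortex libraries. The others, Hist1h3g, Hist1h2an and Hist1h1b among them, passed only with the stem cell libraries included, which favours higher values there. The share called higher and the median are thus partly fixed by the filter. Of the 25 called higher, 4 were H1, 5 H2A, 6 H2B, 9 H3 and 1 H4 genes. Hist1h3g (H3) had 110 counts in mESC and 2 in E17.5 WT, a ratio of 70.8 (exact 95% counting interval 19.1 to 592), Hist1h2an (H2A) 58 and 1, a ratio of 74.7 (12.9 to 3000), and Hist1h1b (H1) 41 and 1, a ratio of 52.8 (8.96 to 2135). Hist2h3c1 had 89 and 0 counts, at least 38.2-fold higher, but summed with Hist2h3c2 the mESC libraries (1.24 and 3.88 CPM) overlapped E17.5 WT (1.29 and 1.92). Hist1h2ae, Hist1h1d and Hist1h3h, each among the 3 highest of its class, were 2.19 ± 0.73, 3.45 ± 1.00 and 3.26 ± 0.92 higher (edgeR adjusted p = 0.0217, 0.0107 and 0.0106). Their calls were lost in 3, 2 and 2 of 18 alternatives. Hist1h1e and Hist1h3c, also among the 3 highest of their classes, were called higher too, but these calls were lost in 13 and 7 of 18. The 5 lower genes were Hist3h2ba, Hist3h2a, Hist2h2be, Hist2h2aa2 and Hist1h2ac, the last at -1.93 ± 0.77 (edgeR adjusted p = 0.0448). The Hist1h2ac call was lost in 8 of 18 alternatives. The mESC libraries differed between themselves: clustered genes summed to 79.6 CPM in the library numbered 1 and 138 in that numbered 2. Without mESC library 2, 14 histone genes were called in place of 35, and without E17.5 WT library 2, 17.

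By annotated end, 13 of 24 tested short-end clustered genes were called higher in mESC and 1 lower, and 12 of 25 extended ones higher and 4 lower. These counts are not comparable between the ends, since 9 short-end genes passed the filter in cortex but 24 with the stem cells included, against 22 and 25 extended ones. Short-end genes made up 33.1 and 37.0% of clustered counts in mESC, 5.67 to 6.14% at E17.5, 4.54 to 6.60% at P4 and 10.2 to 14.3% at A6w and A18w. The share at A6w and A18w was mainly that of the Hist2h2aa pair. The pair held 10.85 to 17.29 of 11.82 to 18.85 short-end CPM at A6w and 13.56 to 19.11 of 15.15 to 20.19 at A18w. At E17.5 it held 6.11 to 7.61 of 12.29 to 16.75. In mESC, 60 and 63 of the 67 clustered genes had at least 1 count, against 45 to 58 at E17.5 and 32 to 44 at P4, A6w and A18w. Replacement genes were divided in this comparison: H2afz and H2afx were higher in mESC, H2afy2, H1f0 and H1fx were lower, and H3f3a (-0.01 ± 0.21), H3f3b (-0.29 ± 0.25), H2afv (-0.11 ± 0.24), H2afy (-0.33 ± 0.30) and H2afj (0.14 ± 0.23) did not pass. The comparison holds cell type, growth conditions and sample preparation together, which cannot be told apart.

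**Figure D3:**
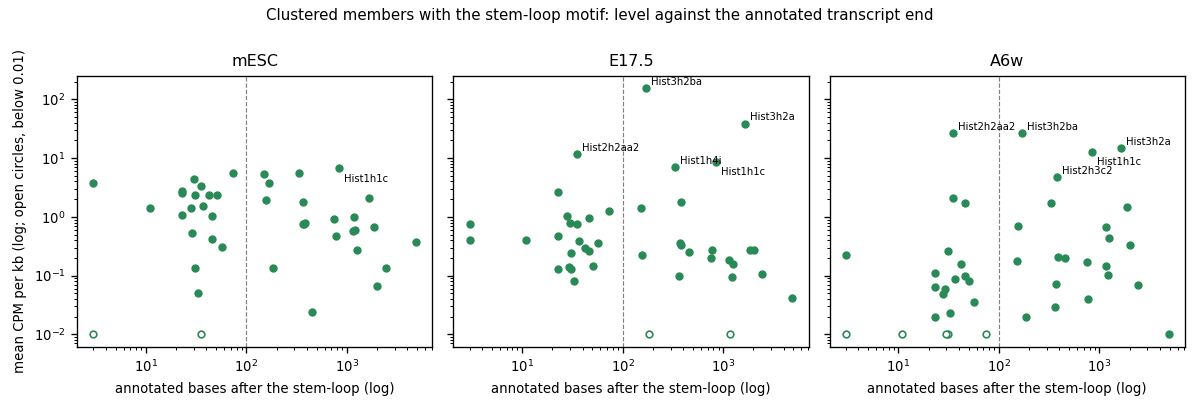
Mean CPM per kb of transcript (y axis, log) against annotated bases after the stem-loop (x axis, log) for the clustered genes with the motif, in mESC, E17.5 cortex and A6w cortex; the dashed line is at 100 bases and open circles lie below 0.01. Hist3h2ba and Hist3h2a stand highest at E17.5, Hist2h2aa2, with 35 bases after the loop, is among the highest at A6w, and no such gene reaches 10 in mESC.

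Over the first stage step, both classes were lower after birth. Between E17.5 and P4, 10 of 10 tested replacement genes fell, with a median log2 difference of -0.91, and 13 of 31 clustered genes fell and 1, the copy Hist2h3c1, rose, with a median of -1.26. Over all 19199 genes tested, 17.9% were lower and 18.9% higher, with a median of 0.03. Some of the clustered genes, Hist1h2ap, Hist1h3h, Hist1h3c and Hist1h4b among them, passed the filter through their E17.5 counts alone, which favours falls. The clustered share called lower and the clustered median are thus partly fixed by the filter. Without both E17.5 libraries numbered 1, 8 of the replacement and 5 of the clustered genes passed, and within WT alone 9 and 5, within Mcph1KO alone 7 and 5. S phase genes, such as those of the replicative helicase, moved with them: 21 of 22 fell, with summed levels of 714 to 1326 CPM at E17.5 and 383 to 468 at P4. Markers of intermediate progenitors, the dividing precursors of cortical neurons, fell in 5 of 5 cases (357 to 617 and 56.0 to 100.5 CPM summed), of radial glia in 5 of 7 (1057 to 1372 and 612 to 784), and of red blood cells in 6 of 7 (1095 to 1900 and 57.4 to 293); none of the intermediate progenitor markers was at 0 in any P4 library. Their part in the histone falls was not tested, and in bulk tissue fewer cells of a type and less RNA per cell cannot be told apart.

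The second step held calls in both directions. Between P4 and A6w, 5 of 10 replacement genes fell and 1 rose, with a median of -0.61, while 9 of 31 clustered genes rose and 4 fell, with a median of -0.08 (also -0.08 with groups at 0 set to their bounds and 2 genes left out that were at or under the floor in both). Over all genes tested 27.3% were higher and 27.8% lower, with a median of -0.06, so the clustered share higher was close to that background. Scaling by total count alone moved the median of all genes to -0.28 for this step (and to -0.36 for mESC against E17.5 WT), and the split over both classes from 10 higher and 9 lower to 8 higher and 12 lower. Of the 9 genes that rose, 7 had extended ends, a share close to that of all tested clustered genes, 22 of 31. The Hist2h2aa pair, whose copies can hardly be told apart, had short ends. With near-identical copies summed, 8 clustered genes rose. S phase genes fell in 19 of 22 cases over the same step and rose in 1. Oligodendrocyte markers rose in 6 of 8 cases, from 213 to 350 CPM summed at P4 to 4750 to 8474 at A6w, astrocyte markers in 5 of 7 (876 to 1442 and 4863 to 6091) and microglia markers in 6 of 6 (67.7 to 104.3 and 218.3 to 335.8); Mobp was at 0 in 1 P4 library. Their part in the rise of the clustered genes was not tested. Between A6w and A18w no histone gene was called (0 of 41 by edgeR and by DESeq2; 1 clustered gene, Hist1h4b, had an unadjusted p under 0.05 by edgeR), against 0.135% of all genes.

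**Figure D4:**
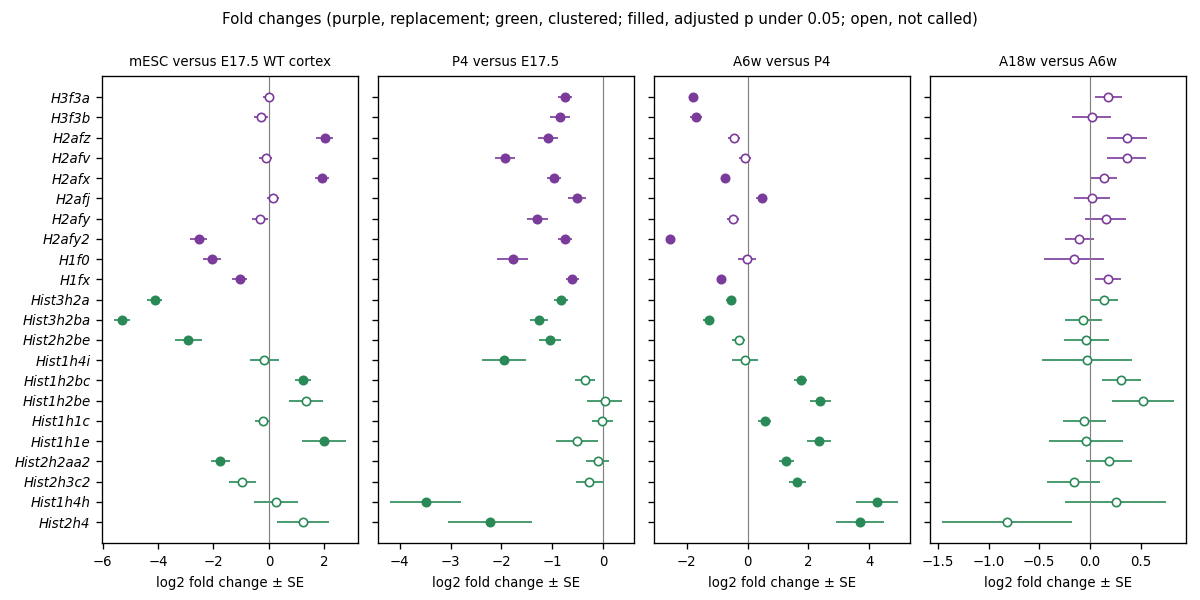
Log2 fold change ± SE (x axes, scales differ) of the 10 replacement genes (purple) and 12 clustered genes (green) in 4 comparisons; filled points had an adjusted p under 0.05. All purple points lie below 0 from E17.5 to P4, and from P4 to A6w the clustered genes Hist1h2bc, Hist1h2be and Hist1h4h lie above 0 while H3f3a, H3f3b and H2afy2 lie lowest among the replacement genes.

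Summed over genes, replacement levels were at 3322 and 3765 CPM in mESC, 2537 to 4059 at E17.5, 1531 to 1846 at P4, 694 to 817 at A6w and 733 to 907 at A18w. Clustered levels were at 79.6 and 138 CPM in mESC, 200.1 to 289 at E17.5, 120.3 to 135.5 at P4, 112.1 to 160.8 at A6w and 128.9 to 164 at A18w. The replacement sum thus dropped at both steps with no overlap, and the clustered sum dropped at the first and overlapped after it. On this scale of counts, which is not corrected for length, clustered genes made up 2.34 and 3.54% of histone counts in mESC, 6.64 to 7.45% at E17.5, 6.58 to 7.40% at P4, 13.9 to 17.4% at A6w and 14.4 to 15.3% at A18w. H3f3a and H3f3b made up 97.8 to 99.9% of the H3 counts in every library, mESC included. Clustered transcripts without a tail may be counted in part or not at all, so these are shares of the counts captured and not of all histone mRNA.

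**Figure D5:**
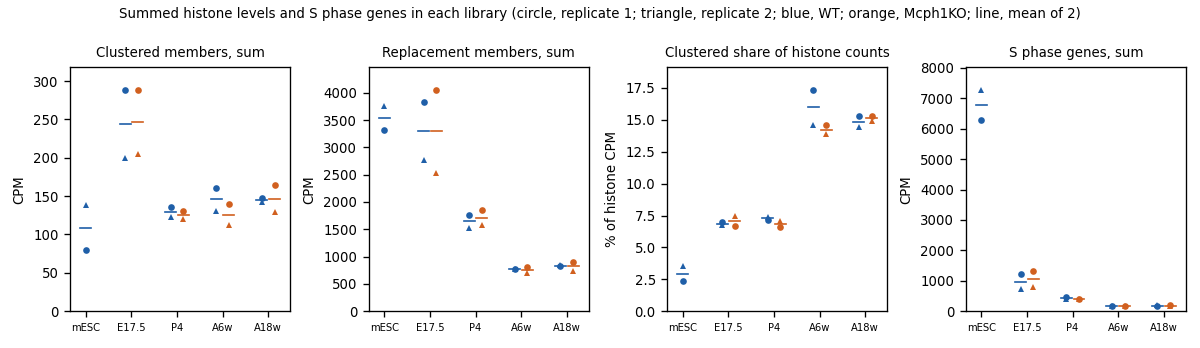
Summed CPM of the clustered and of the replacement genes, the clustered share of histone counts in percent and the summed CPM of 22 S phase genes (y axes, from 0) in each library by stage (x axis); lines are means of 2. The clustered share is 13.9 to 17.4% at A6w against 6.58 to 7.40% at P4, and S phase genes are highest in mESC at 6291 and 7289 CPM.

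No histone gene was called between the genotype labels. At E17.5, P4, A6w and A18w, averaged over the stages and for genotype by stage, 0 of 41 tested genes passed by edgeR and 0 by DESeq2 in each of these comparisons, where the share of all genes called by edgeR was 0 at each single stage and for genotype by stage and 0.0521% for the average. At an unadjusted p under 0.05, 1 clustered gene was found at P4 and 1 for genotype by stage, and none in the others. Averaged over the stages, the replacement genes differed by -0.07 ± 0.14 (H2afz) to 0.05 ± 0.14 (H3f3b) on the log2 scale, with the SE at most 0.21 (H1f0). Hist3h2a differed by -0.05 ± 0.10, Hist3h2ba by 0.04 ± 0.13, Hist1h2bc by -0.03 ± 0.14, Hist1h1c by 0.05 ± 0.15 and Hist1h4i by 0.08 ± 0.31. Every one of these named differences was smaller than its SE. With the replicate number as a block, 0 of 41 passed in each genotype comparison. All of these comparisons rest on labels that the level of Mcph1 could not check.

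Genes that make, process and place histones were followed from lists. Of 13 genes for histone mRNA synthesis and processing, 11 were higher and 1 lower in mESC than in E17.5 WT; Slbp, which binds the stem-loop, was 2.37 ± 0.20 and Npat, the activator of clustered genes, 1.64 ± 0.18 higher (edgeR adjusted p = 3e-06 and 1.82e-05). From E17.5 to P4, 7 fell, Slbp by 0.51 ± 0.12 (edgeR adjusted p = 0.00502), and 1 rose; from P4 to A6w, 7 fell and 1 rose. Lsm11, a subunit of the U7 particle that cleaves histone mRNA, was the 1 gene lower in mESC and the 1 that rose to P4. It was 2.16 ± 0.31 lower in mESC and rose by 1.36 ± 0.21 to P4 (edgeR adjusted p = 0.00012 and 0.000408). From P4 to A6w it fell, as most of the called genes did, by 1.45 ± 0.21 (edgeR adjusted p = 6.67e-05).

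Chaperones of replication-coupled assembly were higher in mESC in 9 of 9 cases and fell in 8 of 9 and 9 of 9 over the first and second stage steps; Chaf1b, a subunit of the CAF-1 complex, fell by 4.18 ± 0.39 from P4 to A6w and Nasp, a histone H3-H4 chaperone, by 2.86 ± 0.17 (edgeR adjusted p = 1.38e-06 and 2.95e-08). Of 14 genes for variant deposition, 5 were higher and 5 lower in mESC, 7 fell to P4, and 6 fell and 1 rose to A6w. Hira, which places H3.3, fell by 0.68 ± 0.10 from P4 to A6w, Vps72, which binds H2A.Z, by 1.04 ± 0.13, and Ubn1, a partner of Hira, rose by 0.71 ± 0.12 (edgeR adjusted p = 7.88e-05, 1.8e-05 and 0.000214). General histone chaperones were mixed: 3 of 9 rose and 6 fell to P4, and 2 rose and 5 fell to A6w, with Nap1l5 up by 1.88 ± 0.19 and Npm1 down by 0.93 ± 0.15 over the latter step (edgeR adjusted p = 3.69e-06 and 0.000153). All genes tested had called shares of 36.8% from E17.5 to P4, 55.1% from P4 to A6w and 68% between mESC and E17.5 WT.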

How the data were processed

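RNA-seq of 18 libraries was analysed from 1 table of estimated counts per gene, deposited by the authors as whole numbers. The submitters' processing notes name FastQC, Trimmomatic 0.39, Salmon 1.4.0 and GRCm38.p6/mm10; the annotation and the summing of transcripts to genes are not given in the sources used here. Salmon shares reads between similar transcripts by estimation, which touches clustered genes most. A median of 60.2% of their 31-base stretches also occurred in other genes, against 13.6% for replacement genes. Among the tested replacement genes H2afz was highest, at 77.8%.

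Genes were tested with edgeR 4.0.16 (R 4.3.3; TMM scaling, filterByExpr with a minimum count of 10 and total of 15, quasi-likelihood F test, Benjamini-Hochberg adjustment over all genes tested). Cortex comparisons used 16 libraries and 19199 genes; the contrast of mESC to E17.5 WT came from a separate model of all 10 WT libraries. Genes with an adjusted p under 0.05 are called. Folds against 0 counts use a floor of 3 counts over the group. DESeq2 1.42.0, other scalings and left-out libraries were alternatives. The scripts were tested on simulated data. Libraries with the same number in both genotypes deviated together at each stage (correlations 0.609, 0.248, 0.101 and 0.366 at E17.5, P4, A6w and A18w), which no label explains; the main fits hold no block, and the number was used as a block in an alternative.

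Named genes were all tested replacement genes, the 3 of highest mean CPM in each clustered class, and the 4 largest called rises and falls per comparison; from other lists, up to 4 called genes of smallest adjusted p. Members and lists were chosen with earlier results of these data known. Genes named outside this rule were chosen after their values were seen.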

Additional observations from a re-analysis of the deposited data

How the results depend on the processing

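Of 61 results for named histone genes, 1432 values under alternatives kept their direction; 157 of these no longer passed the threshold and 0 reversed. From E17.5 to P4, 24 histone genes were called, but 14 within WT alone, 12 within Mcph1KO alone, 13 without both E17.5 libraries numbered 1 (added after seeing the data) and 15 to 24 when 1 library was left out, the lowest without E17.5 WT replicate 1. From P4 to A6w 19 were called, and 16 to 22 with 1 library left out. Between mESC and E17.5 WT 35 were called, and 14 to 35 with 1 library left out: 14 without mESC replicate 2 and 17 without E17.5 WT replicate 2; the lone library is then assumed to vary like the other groups. With no filter on low counts, 1 gene was called where none had been, Hist2h3c1 for genotype at A6w and Hist2h2aa1 for genotype at A18w, genotype by stage and A18w against A6w; both share all their 31-base stretches with other genes, and Hist2h3c1 had 30 counts in 1 A6w library and Hist2h2aa1 27 in 1 A18w library, with 0 in the other libraries of that stage. With the replicate number as a block, 0 genes were called for genotype in each comparison, 25 from E17.5 to P4, 21 from P4 to A6w, 0 from A6w to A18w and 31 for mESC; the block moved no count of calls by over 1.5 times. Scaling by total count alone moved mean summed levels to 139.9 CPM for clustered and 1851 for replacement genes at P4 and to 697.9 for replacement genes at A6w. Leaving out 1 library gave 0 calls for genotype in each comparison. At few counts, as in most chromosome 13 genes, only large differences could be detected.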
